A study of Mus musculus with 4 samples.

Results

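The proteins of the large (60S) subunit of the cytosolic ribosome were followed in leukaemia stem cells of mouse bone marrow, which can restart a leukaemia. They were taken by symbol, as every gene of the deposited table named Rpl followed by a number with an optional letter, or Rplp0, Rplp1 or Rplp2, and symbols ending in -ps, which mark pseudogenes, were left out. This gave 51 of 16442 genes. The symbols cover 46 standard subunit genes and 5 paralogues with a symbol ending in l (Rpl3l, Rpl6l, Rpl32l, Rpl36al and Rpl39l); Rpl10l was not analysed here. There were 4 samples from C57BL/6 mice with leukaemia: 2 of genotype WT and 2 whose titles read KO. The genotype field names Rreb1-KO in KO replicate 1 and Rreb2-KO in KO replicate 2, and the latter was grouped by its title. For the age of the mice, the leukaemia model, the way the knockout was made and any agent, the sources used here give nothing. The series calls the replicates biological, without tying them to animals, so p-values measure only the spread between these samples. Each sample has ribosome footprints, the stretches of mRNA that ribosomes shield from nuclease, and RNA of the same lysate. Footprint and RNA levels are given in RPKM, read numbers divided by the coding length in kilobases and set to a library of 1000000 assigned reads. The translational efficiency (TE) is the deposited ratio of footprint to RNA, each with 1 added.

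The large subunit carries the peptidyl transferase centre, where amino acids are joined, and the tunnel through which the new chain leaves. Most of its proteins bind ribosomal RNA in the nucleolus and are made in matched amounts, and surplus copies are degraded. The P stalk recruits the translation factors that hydrolyse GTP, and Rpl5 and Rpl11 enter the subunit together with 5S ribosomal RNA and, when free, bind the p53 ligase Mdm2. The mRNAs of ribosomal proteins typically begin with a C followed by a run of pyrimidines, the 5′ terminal oligopyrimidine (TOP) tract, through which mTOR signalling and Larp1 control their translation as a group. Blood formation is sensitive to the supply of ribosomal proteins, and inherited loss of a copy of Rpl5, Rpl11 or Rpl35a causes Diamond-Blackfan anaemia in people.

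The sequence around the listed start of transcription is given for genes described elsewhere in the text, to show what such a tract looks like and where its letters lie. In the RefSeq tables (build GRCm38.p6), 38 of the 51 genes had a promoter listed. A tract, searched on the gene's strand only as a C followed by at least 4 bases that are all C or T, lay within 20 bases of a listed start in 31 of them (81.6%), against 55.7% of all 27025 genes with a promoter listed. It began at the start itself, from 3 bases before to 2 bases after it, in 7 (18.4%), against 9.70%. Each line below holds 30 bases, 15 before the listed start and 15 from it on, 5′ to 3′ on the gene's strand, with the tract in capitals. The first 6 carry a tract in this window, and Rpl41 and Rpl26 do not.
Rplp2, chr7:141447636-141447665, plus strand: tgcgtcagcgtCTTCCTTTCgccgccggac
Rpl12, chr2:32961697-32961726, plus strand: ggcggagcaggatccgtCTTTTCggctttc
Rpl7a, chr2:26910792-26910821, plus strand: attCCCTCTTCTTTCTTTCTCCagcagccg
Rpl18, chr7:45718056-45718085, plus strand: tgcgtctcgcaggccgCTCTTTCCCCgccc
Rpl35a, chr16:33056467-33056496, plus strand, 1 of its listed starts: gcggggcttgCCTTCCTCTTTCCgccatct
Rpl13a, chr7:45128731-45128760, minus strand: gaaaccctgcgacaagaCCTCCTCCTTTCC
Rpl41, chr10:128549154-128549183, minus strand: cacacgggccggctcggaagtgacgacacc
Rpl26, chr11:68901551-68901580, plus strand: ctcgcggcaacttacagaaccggaagtcgc
A match here is a string of letters and no mapped start, and a gene without one in the listed window may use another start.

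The libraries differed in depth in the direction of the groups. Assigned footprint reads came to 878068 and 656249 in WT replicates 1 and 2 and to 364087 and 274183 in KO replicates 1 and 2, so the KO footprints are the less precise. Over the tested genes, footprint levels of the WT pair correlated across genes at r = 0.94 and those of the KO pair at 0.782, and RNA levels at 0.997 and 0.996; genes are not independent replicates. Rreb1 itself, which checks the labels, had RNA of 3.33 and 3.25 RPKM in WT and 6.10 and 6.93 RPKM in the libraries labelled KO, so a loss of its RNA was not seen there and direction is given by label. Markers of other cells moved with the groups: the summed RNA of 9 mature myeloid genes was 12617 and 12040 RPKM in WT and 3664 and 4213 RPKM in KO. That of 6 T and NK cell genes was 16.7 and 16.8 RPKM against 432 and 362 RPKM, that of 6 erythroid genes 63.9 and 54.9 against 304 and 368 RPKM, and that of 6 mast cell and basophil genes 35.9 and 34.0 against 497 and 484 RPKM. Summed RNA of 8 stem and progenitor genes was 108 and 109 RPKM in WT and 188 and 184 RPKM in KO. Each of the markers summed here had RNA in at least 1 library. Only 1 of the T and NK genes and 2 of the erythroid genes reached 5 RPKM in at least 2 libraries. By the RNA test described below, 5 of 8 mature myeloid genes fell and 1 rose. Of 8 stem and progenitor genes 5 rose and 1 fell, and all 5 mast cell and basophil genes tested rose. Over all 7428 genes 35.6% rose and 26.8% fell. In bulk samples, fewer cells of a type and less RNA per cell cannot be told apart. The part of these markers in the results below was not tested.

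Large subunit mRNAs were abundant in the input and thinly covered by footprints. They held 2.31% and 2.30% of summed RNA RPKM in WT and 2.91% and 3.25% in KO. Of summed footprint RPKM, the like measure, they held 0.447% and 0.533% in WT and 0.868% and 0.331% in KO. Shares of reads, given next, are not scaled by coding length and are not to be set against the RNA share. Of assigned footprint reads they held 0.205% (95% exact binomial interval 0.196 to 0.215%) and 0.258% (0.246 to 0.271%) in WT, and 0.378% (0.358 to 0.398%) and 0.157% (0.142 to 0.172%) in KO; these intervals cover counting error only. KO replicate 1 was the highest of the 4 footprint shares and KO replicate 2 the lowest, so the groups overlapped (difference 0.0357 percentage points, two-sided exact permutation p = 1, and this design allows no p below 0.333). For the RNA share both KO libraries lay above both WT libraries, with that smallest p of 0.333. Without KO replicate 2 the footprint difference was 0.146 percentage points and without KO replicate 1 it was -0.0749.

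The counts behind single genes were low. All members together had 1800 and 1696 reads in WT and 1376 and 430 reads in KO. The median member had 31 reads over all 4 libraries, 18 members had under 20, and 7 had 200 or more. Reads of single members were recovered as the smallest whole numbers that fit. They can be short by a factor shared by all libraries, so these counts are lower limits. Rpl32l and Rpl6l stayed near the floor of 1 in all 4 libraries, with no footprint read at all, 20 members were at the floor in at least 1 library, and 31 had reads in every library. Members without a read numbered 6 and 2 in WT and 4 and 18 in KO, and 14 of the 18 in KO replicate 2 had reads in KO replicate 1. A few genes held most reads: the 5 most read members took 69.1% and 65.3% of member reads in WT and 59.96% and 67.7% in KO. Rpl8, a protein of the peptidyl transferase centre, led in 3 libraries, with 409, 401 and 124 reads in WT replicates 1 and 2 and KO replicate 2.

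**Figure D1:**
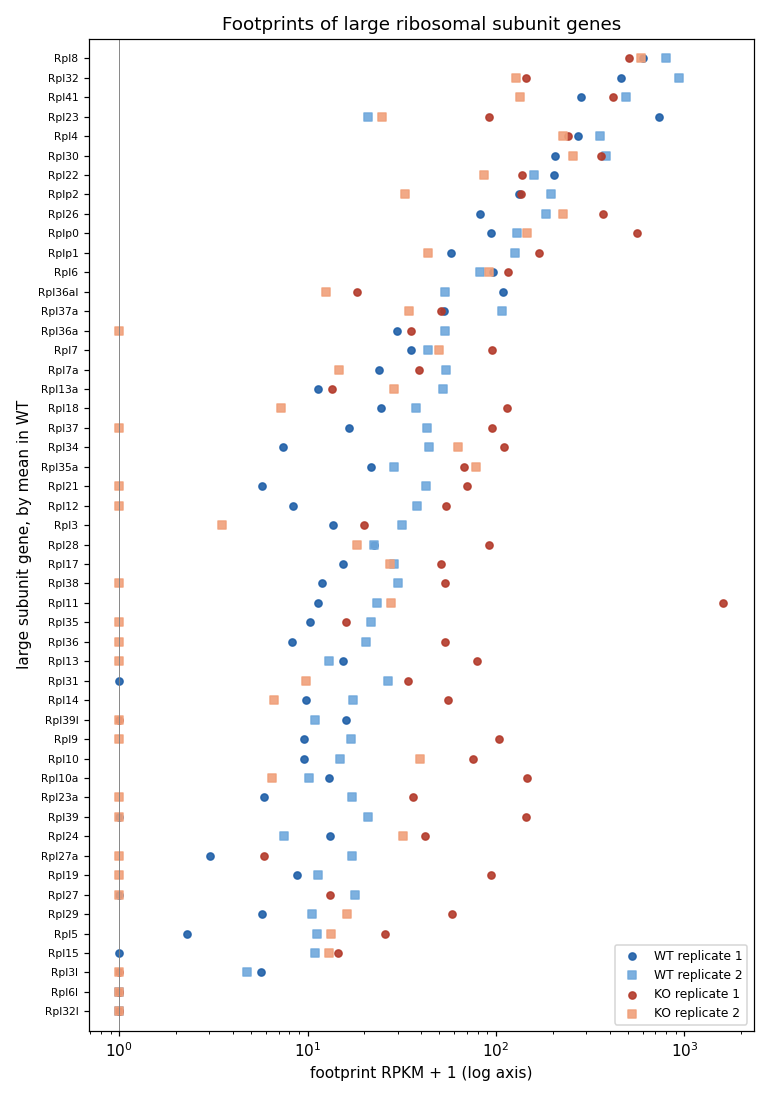
Footprint level of 50 of the 51 large subunit genes (rows, ordered by mean in WT) as RPKM + 1 on a log axis, 1 point per library, with a grey line at the floor of 1. KO replicate 2 puts 18 genes on the floor, and Rpl11 in KO replicate 1 (1606 RPKM) and Rpl23 in WT replicate 1 (735 RPKM) stand far to the right of their replicates.

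Rpl11 and Rpl23 were each high in 1 library only. Rpl11 was at 10.4 and 22.2 RPKM in WT, 1606 RPKM in KO replicate 1 and 26.6 RPKM in KO replicate 2, from 5, 8, 321 and 4 reads. The 321 reads made up 23.3% of member reads of that library, and the level was 60.4-fold that of its replicate, while Rpl11 RNA was 87.5 and 82.1 RPKM in WT and 122 and 146 RPKM in KO. Rpl23, a protein at the subunit interface, was at 735 and 20.01 RPKM in WT and 90.2 and 23.9 RPKM in KO, from 295, 6, 15 and 3 reads, which put WT replicate 1 36.7-fold over its replicate. The plot of footprints by gene shows both points. Among all genes with at least 100 reads in the library, 55 of 648 in KO replicate 1 and 36 of 1774 in WT replicate 1 stood at least 20-fold over their replicate. In WT replicate 2 this held for 0 of 1293 genes and in KO replicate 2 for 32 of 454, with no member among them. Without Rpl11 and Rpl23 the shares of footprint reads were 0.171% and 0.256% in WT and 0.286% and 0.154% in KO.

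RNA of the large subunit genes rose almost throughout in KO. RNA was tested with limma on log2(RPKM + 1), with Benjamini-Hochberg adjustment over all genes tested and a threshold of 0.05. Among genes with a footprint CPM (reads per 1000000 assigned) of at least 20 in at least 2 libraries, 18 of 20 members rose and 0 fell, where 33.1% of the 6389 genes tested rose and 27.7% fell. That filter was set on footprints and left out 31 members with between 0 and 338 footprint reads. With a filter on RNA instead, at 5 RPKM or more in at least 2 libraries, 40 of 46 members rose and 0 fell, against 35.6% and 26.8% of 7428 genes. The median log2 difference was 0.53 over the 46 members and 0.06 over all 7428 genes. Both KO libraries exceeded both WT libraries for 45 of the 46, against 45.7% of genes. The KO over WT ratio of mean RNA ran from 1.01 (Rplp0) to 2.44 (Rpl13a), with a median of 1.46. Rpl13a, at 3.56 and 3.85 RPKM in WT and 7.83 and 10.3 RPKM in KO, passed the RNA filter only through its KO values. Its place at the top is therefore partly set by the filter, and the next highest ratio was 1.89 (Rpl28). Both KO libraries shared the direction, at a median of 1.35-fold over the WT mean in replicate 1 and 1.59-fold in replicate 2, and 40 of the 46 were higher in replicate 2.

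**Figure D2:**
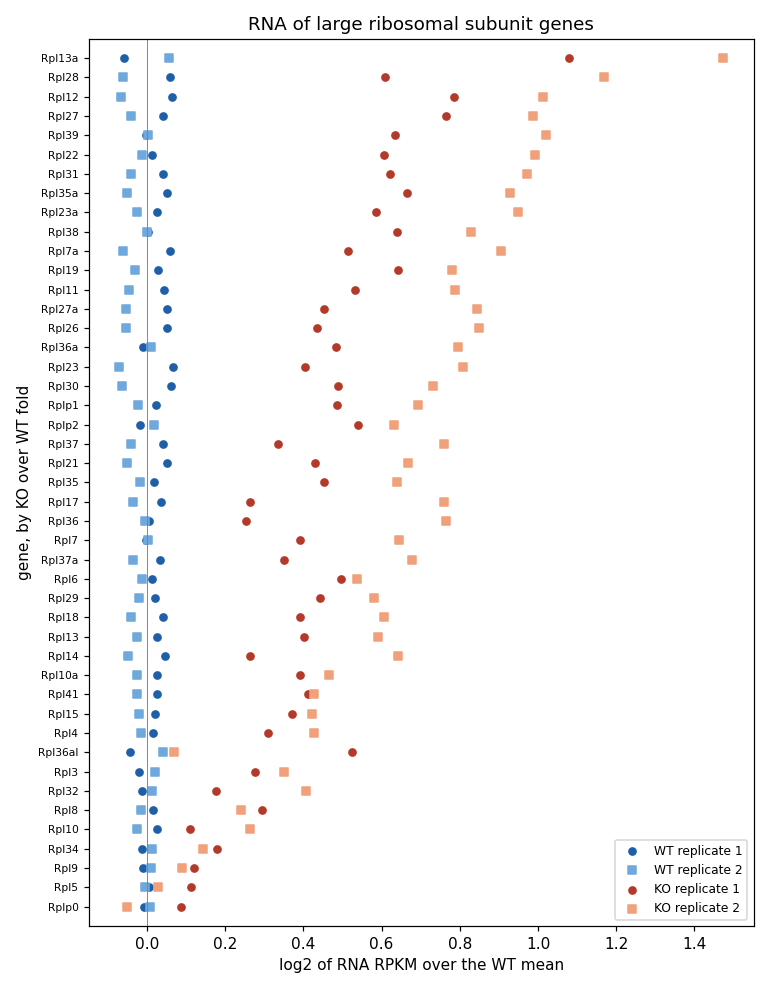
RNA of 45 of the 46 large subunit genes that passed the RNA filter (rows, ordered by the KO over WT ratio), as the log2 of RPKM over the WT mean, 1 point per library. For 44 genes both KO points lie right of both WT points; for Rplp0, at the bottom, the libraries overlap.

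The 6 members that did not pass were Rplp0, Rpl5, Rpl9, Rpl10, Rpl34 and Rpl36al. Rplp0, the anchor of the stalk and a common reference gene in PCR assays, had RNA of 796 and 804 RPKM in WT and 849 and 772 RPKM in KO, a log2 difference of 0.02 ± 0.08 (SE). Rpl5 was at 374 and 372 RPKM against 403 and 380 RPKM (log2 difference 0.07 ± 0.07, limma adjusted p = 0.421), with no overlap but a difference no larger than its error. Its partner Rpl11 rose (log2 difference 0.65 ± 0.10, adjusted p = 0.00185 by limma), with the levels given above. Rpl10 RNA was 231 and 223 RPKM in WT and 245 and 273 RPKM in KO, a log2 difference of 0.19 ± 0.08 (limma adjusted p = 0.0692 in the fit of 6389 genes).

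The largest RNA differences among the 20 members tested in both measures belonged to Rpl12, Rpl35a, Rpl22, Rpl7a and Rpl26. Rpl12, which sits at the base of the P stalk, rose from 31.9 and 29.1 RPKM to 52.5 and 61.5 RPKM (log2 difference 0.88 ± 0.09, limma adjusted p = 0.000186). Rpl35a rose from 45.6 and 42.4 RPKM to 69.7 and 83.7 RPKM (0.78 ± 0.10). Rpl22, a protein of the tunnel exit that is dispensable for ribosome assembly and has a role in T cell development, rose from 19.4 and 19.0 RPKM to 29.2 and 38.2 RPKM (0.77 ± 0.12). Rpl7a and Rpl26, which binds near the tunnel exit, rose by 0.70 ± 0.12 and 0.64 ± 0.13. Each of these 5 was higher in KO replicate 2 than in KO replicate 1. The smallest RNA differences after Rplp0 and Rpl10 were those of Rpl8, Rpl32 and Rpl3, all of which passed. Rpl8 was at 291 and 285 RPKM in WT against 353 and 340 RPKM in KO (0.27 ± 0.07). Rpl32 was at 777 and 790 against 885 and 1039 RPKM (0.29 ± 0.10), and Rpl3 at 96.8 and 99.6 against 119 and 125 RPKM (0.31 ± 0.06). Over the 46 members the RNA difference had a Spearman correlation of -0.443 with WT RNA and of -0.357 with coding length, given as a description, since RNA in WT enters both sides of the first.

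By role, and against 35.6% of genes that rose and 26.8% that fell among the 7428, all 9 tunnel genes rose, with a median log2 difference of 0.71, as did the 3 interface genes (0.60), Rpl10a of the L1 stalk (0.42), and 21 of 23 genes without an assigned role (0.51). In the P stalk 3 of 4 rose (median 0.58), in the peptidyl transferase centre 2 of 3 (0.27), and in the pair that binds 5S RNA 1 of 2, groups too small to set against that share. The median RNA difference was 0.59 over 28 genes with a tract near the start and 0.48 over 6 without. The 6 genes whose tract began at the start had a median of 0.80, against 0.54 over 28 others; these differences were not tested. Other ribosomal and TOP mRNAs rose as well: 30 of 31 small subunit genes rose (median 0.52) and 12 of 15 non-ribosomal TOP mRNAs (median 0.43), with 0 falling in either list. Of 22 factors that assemble the 60S subunit, 6 rose and 2 fell (median -0.03), a smaller share in each direction than over the 7428 genes.

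In footprints, 0 of the 20 tested members passed the limma test, where 1.06% of 6389 genes did. At an unadjusted p under 0.05, 3 were higher and 1 lower in KO, and 5.84% and 12.4% of all tested genes were. limma-voom on recovered reads passed 0 members and 72 genes (1.13%), and at an unadjusted p under 0.05 had 4 members higher and 1 lower, against 7.09% and 10.7% of genes. The median log2 difference was -0.21 over the 20 members, against -0.13 over all tested genes, and -0.22 over all 51. The members did not move as a group: KO lay wholly above WT for 12 of 51 (12.2% of all 16442 genes) and wholly below for 8 (19.5%), and 31 overlapped. Under the RNA filter KO lay above for 11 of 46 members, against 17.1% of 7428 genes, and below for 6, against 29.5%. The KO libraries pulled apart. Without KO replicate 2 the median over 51 members was 1.50 and 4 members, among them Rpl10, Rpl18 and Rplp0, passed as higher, as 7.25% of genes did; without KO replicate 1 it was -1.06 and Rplp2 passed as lower, as 3.13% of genes did. With 1 library left out, the difference changed sign for 7 of the 20: Rpl12, Rpl18, Rpl30, Rpl41, Rpl7a and Rplp1, and Rpl23, which was 1.18 without WT replicate 1. Median member footprints were 12.6 and 27.6 RPKM in WT and 68.2 and 12.3 RPKM in KO.

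The stalk proteins went different ways. Rplp0, the scaffold, was at 93.4 and 128 RPKM in WT and 560 and 146 RPKM in KO (log2 difference 1.38 ± 0.69, limma adjusted p = 0.38), so both KO libraries were above both WT libraries and replicate 1 far above. Rplp2, which pairs with Rplp1 on that scaffold, was at 132 and 194 RPKM in WT and 135 and 31.7 RPKM in KO (-1.27 ± 0.74, adjusted p = 0.439), and only KO replicate 2, with 3 reads, lay outside the WT range. Rplp1 was at 56.6 and 125 RPKM in WT and 169 and 42.7 RPKM in KO, with each KO library outside the WT range on another side (0.02 ± 0.78). Taken within a library, the Rplp2 to Rplp0 ratio of footprint RPKM was 1.41 and 1.52 in WT and 0.242 and 0.218 in KO, and the Rplp1 to Rplp0 ratio 0.606 and 0.973 in WT and 0.301 and 0.293 in KO. Both ratios were lower in both KO libraries, while the RNA ratios were higher there: 0.0806 and 0.0818 in WT against 0.111 and 0.130 in KO for Rplp2, and 0.598 and 0.572 against 0.772 and 0.980 for Rplp1. In KO replicate 1 neither Rplp2 nor Rplp1 footprints were below both WT libraries, and Rplp0 was at 560 RPKM. In KO replicate 2 the footprint ratios rested on 3 Rplp2 reads and 4 Rplp1 reads. All these ratios were formed after the values were seen and were not tested. Rpl12 was at 7.40 and 37.1 RPKM in WT and 53.5 RPKM in KO replicate 1, and had no read in KO replicate 2, which allows a level up to 17.8 RPKM; its log2 difference of -1.28 ± 2.03 was 1.61 without KO replicate 2.

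The pair that binds 5S RNA had few footprint reads outside 1 library, as many members did. The median member was at 12.6 and 27.6 RPKM in WT and 68.2 and 12.3 RPKM in KO. Rpl5 had 1.28 and 10.3 RPKM in WT and 24.7 and 12.3 RPKM in KO, from 1, 6, 8 and 3 reads, and its TE of 0.00607 and 0.0302 in WT was the lowest of the 46 RNA-filtered members in both libraries. Rpl11 had the single high value described above. Neither was tested in footprints. Mdm2 footprints were 26.4 and 18.7 RPKM in WT and 7.49 and 34.8 RPKM in KO, and its RNA fell by 0.48 on the log2 scale (± 0.08), from 16.7 and 18.2 RPKM to 12.6 and 11.8 RPKM.

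At the peptidyl transferase centre, Rpl8 was the most footprinted tested member in WT by mean, at 604 and 793 RPKM against 506 and 587 RPKM in KO (log2 difference -0.34 ± 0.28). Rpl10, which is added late and completes the catalytic site, went from 8.59 and 13.8 RPKM to 74.6 and 38.5 RPKM, a log2 difference of 2.20 ± 0.48 (limma adjusted p = 0.136, unadjusted 0.00671). It rested on 5, 6, 18 and 7 reads, and it was the least footprinted of the tested members in WT. Rpl3, which reaches into the centre from the outside, had 12.6 and 30.5 RPKM in WT and 18.9 and 2.52 RPKM in KO (-1.30 ± 0.96), with 1 read in KO replicate 2.

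Along the tunnel, Rpl4 was the second most read member in 3 libraries, at 271 and 354 RPKM in WT and 240 and 226 RPKM in KO, from 299, 292, 110 and 78 reads (log2 difference -0.41 ± 0.28). Rpl22 was at 202 and 159 RPKM against 136 and 85.5 RPKM (-0.73 ± 0.35). In both genes the KO libraries lay below the WT libraries, and neither passed. Rpl26, which also binds p53 mRNA, was at 81.2 and 182 RPKM in WT and 366 and 226 RPKM in KO (1.24 ± 0.50, adjusted p = 0.301). At the interface, Rpl30 was at 205 and 384 against 358 and 254 RPKM, and Rpl41, a short peptide that bridges the subunits, had 281 and 486 against 418 and 132 RPKM (-0.65 ± 0.64), and the groups overlapped for both.

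Of the remaining members, Rpl32 differed most. Its footprints were 458 and 933 RPKM in WT and 142 and 126 RPKM in KO, from 163, 248, 21 and 14 reads. Both KO libraries were under the lower WT library, the log2 difference was -2.28 ± 0.42, and the limma adjusted p was 0.104 (unadjusted 0.00333). Rpl35a went the other way in both KO libraries. It was at 20.7 and 27.7 RPKM against 66.6 and 77.4 RPKM (1.54 ± 0.32, adjusted p = 0.127), from 6, 6, 8 and 7 reads. Rpl18 showed how far 1 library decided a value: with 23.4 and 36.5 RPKM in WT and 113 and 6.23 RPKM in KO its log2 difference was -0.08 with all libraries and 1.91 without KO replicate 2.

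Among the paralogues Rpl3l and Rpl39l had few reads, and Rpl36al had more footprints than the median member in WT. Rpl3l, a form of Rpl3 found in heart and skeletal muscle, had 5 and 3 reads in WT (4.66 and 3.74 RPKM) and none in KO, which allows up to 6.75 and 8.96 RPKM, so a difference was not detectable at this depth. Its RNA was 3.25 and 2.95 RPKM in WT and 1.22 and 1.57 RPKM in KO, with no overlap; it passed neither filter, and with no filter it was the 1 member whose RNA fell. Rpl39l, a paralogue of Rpl39 with high expression in testis, had 2 and 1 reads in WT and none in KO. Rpl36al had footprints of 107 and 52.7 RPKM in WT and 17.3 and 11.5 RPKM in KO, from 30, 11, 2 and 1 reads, while its RNA was 5.14 and 5.45 against 7.62 and 5.55 RPKM. Its TE of 17.7 and 8.32 in WT and 2.12 and 1.90 in KO gave a log2 difference of -2.59 ± 0.45 (limma adjusted p = 0.233, unadjusted 0.00446).

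The TE of the large subunit genes was low in all 4 libraries. Its median over the 46 members was 0.155 and 0.350 in WT and 0.533 and 0.0873 in KO, against 1.71 and 1.78 in WT and 1.44 and 1.64 in KO over the 7428 genes. Of the 46, 39 and 40 in WT and 37 and 41 in KO lay under that library's median gene, and 34 (73.9%) did so in every library, where 33.2% of all 7428 genes did. Genes with abundant RNA lay between the 2: 1441 genes at 50 RPKM of RNA or more in 2 libraries had median TE of 1.22, 1.34, 0.951 and 1.12 in the same order. In every library that was above the members and below the 7428 genes. The small subunit had 0.497 and 0.628 in WT and 0.703 and 0.286 in KO, and the 15 non-ribosomal TOP mRNAs had 2.37, 2.13, 1.78 and 1.98. A member with no read has a TE set by the floor and its RNA alone. Footprints and RNA hardly went together across the 46 members, with Spearman correlations between -0.0777 and 0.218 in the 4 libraries.

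**Figure D3:**
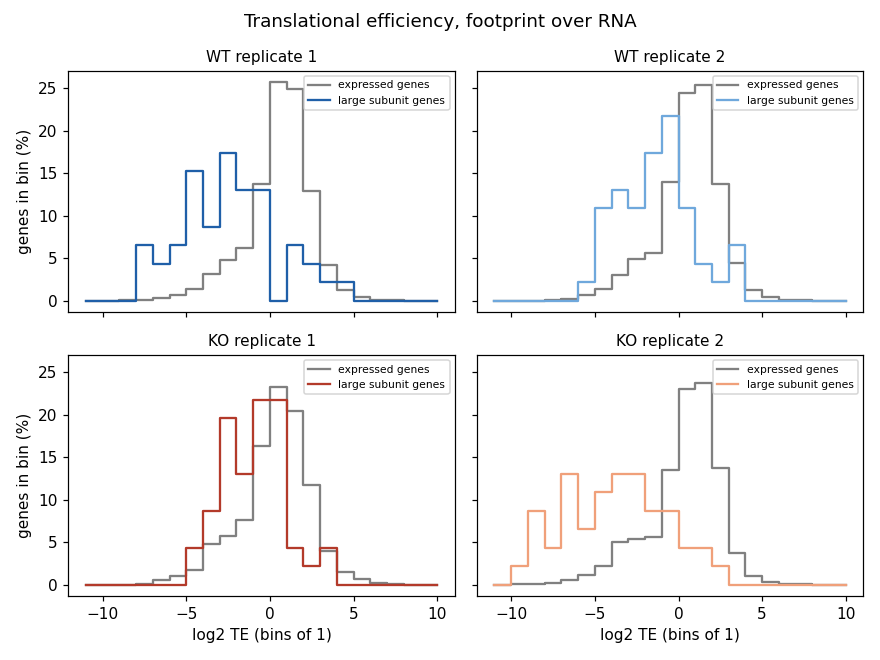
Share of genes (percent, vertical axis) by log2 TE in bins of 1 for each library, with the 46 large subunit genes in colour and the 7428 expressed genes in grey. The coloured lines lie left of the grey ones in all 4 panels, least in KO replicate 1, where the members' median TE was 0.533.

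TE varied over the members with the number of pseudogenes that RefSeq names after them. Ribosomal protein genes have many processed pseudogenes, near-copies of the mRNA in the genome, and reads that fit several places may be split or dropped in counting. RefSeq names 200 such -ps symbols over the members. The 7 expressed members with none (Rpl4, Rpl6, Rpl8, Rpl11, Rpl23, Rpl36al and Rpl41) had a median WT TE of 1.24 and a median WT footprint level of 312 RPKM. The 24 members with 1 to 4 had 0.211 and 23.5 RPKM, and the 15 with 5 or more had 0.194 and 13.2 RPKM. The WT RNA medians of these groups lay closer together, at 129, 99.3 and 92.8 RPKM. In KO the median TE was 0.666, 0.280 and 0.263. Over the 46 members the Spearman correlation of WT TE with the number of pseudogenes was -0.406, and in KO it was -0.269; these points share the libraries. Rpl30 went against the order, with 10 named pseudogenes and a TE of 6.30 and 12.8 in WT. Of 62 Rpl pseudogenes with a row of their own in the table, 1 had any footprint. The sources used here do not say how reads with several matches were handled, and the part of shared reads in the low TE was not tested. Levels of single members carry this uncertainty.

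**Figure D4:**
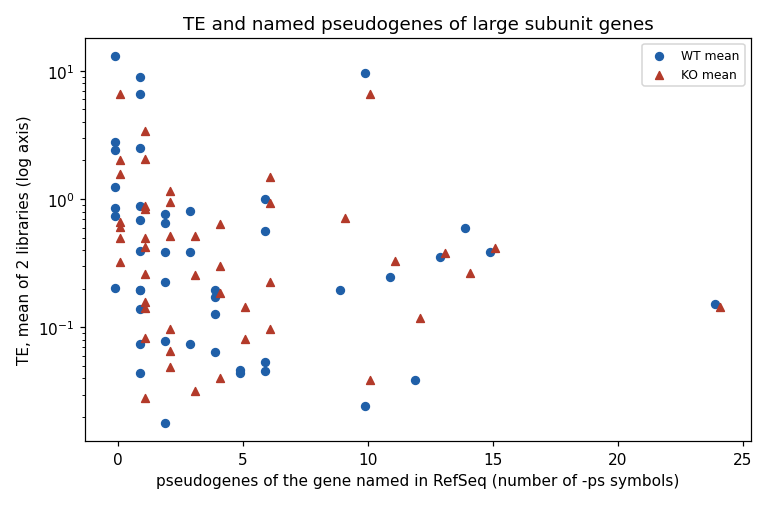
Mean TE of 2 libraries (log axis) of the 46 large subunit genes against the number of pseudogenes named after each in RefSeq, for WT (circles) and KO (triangles), drawn side by side. Of the 7 genes with 0 pseudogenes all but Rpl11 have a WT mean above 0.7, and Rpl30, at 10 pseudogenes, has 1 of the highest values. The WT mean of Rpl23 rests on WT replicate 1 (TE 5.42, against 0.170 in replicate 2).

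The TE difference between the groups did not pass for any member. limma passed 0 of 20 members and 0 of 6389 genes, and under the RNA filter 0 of 46 members and 0 of 7428 genes, so the share called was 0.0% in both. At an unadjusted p under 0.05, 1 of 20 members was higher and 2 lower, against 3.02% and 9.99% of genes, and under the RNA filter 2 of 46 were higher and 3 lower, against 2.73% and 10.9%. The median log2 TE difference was -0.59 over the 20 members, against -0.15 over all genes tested with them, and -0.68 over the 46, against -0.22. It was 0.88 over the 51 members without KO replicate 2, so its direction rested on that library. Without KO replicate 1, Rplp2 alone passed, as lower, where 1.36% of genes did. With 1 library left out, 7 of the 20 TE differences changed sign, among them those of Rpl12, Rpl23 and Rpl26. Rpl32 had the lowest value of the 20, with TE of 0.590 and 1.18 in WT and 0.162 and 0.122 in KO (log2 difference -2.57 ± 0.55, adjusted p = 0.29, unadjusted 0.00576). Rpl12 (-2.15 ± 2.1), Rpl23 (-1.99 ± 1.79), Rplp2 (-1.85 ± 0.77) and Rpl3 (-1.61 ± 1.09) followed. Rpl22, with RNA up and footprints not, went from a TE of 9.95 and 7.97 to 4.53 and 2.21 (-1.49 ± 0.46, unadjusted p = 0.0232). The highest included Rpl10, at 0.0413 and 0.0660 against 0.307 and 0.144 (2.01 ± 0.76), Rplp0 (1.36 ± 0.77), Rpl35a (0.76 ± 0.39) and Rpl26 (0.60 ± 0.63). In the authors' deposited table the p-value for TE was under 0.05 for 5 of 51 members and for 20.9% of all genes. Rpl3l, Rpl39l, Rpl35a and Rpl22 were among these members. The column is headed adj.p, and the sources used here name neither its test nor its sides. No member value was over 0.489 (Rpl6l), the pattern of a one-sided p-value, so these values are not to be set against the two-sided limma values.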

How the data were processed

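The submitters' processing notes list HISAT2 2.1.0, CASAVA, DESeq2 and featureCounts, and as build hg38, a human build, although symbols are mouse. Per the labels' protocols, lysates were digested with nuclease at 10 µg/ml for 30 minutes and fragments of 25 to 40 nucleotides were kept. The authors deposited 1 table of 16442 genes. Its footprint values behave as RPKM plus 1, a unit read from the values, as the sources used here do not state one. The deposited TE is a ratio of footprint to input RNA values; RNA RPKM was computed as footprint value over TE, minus 1. The authors' deposited p-value column, headed adj.p, was used as it stands.

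Steps between RPKM values gave back whole reads for 10536 genes, those footprinted in 2 or more libraries (tolerance 0.002 reads). On simulated data 94.7% of genes came back exactly and 5.30% were short by a factor shared by all libraries, so ratios between them hold. limma 3.58.1 (R 4.3.3, mean-variance trend, two-sided, Benjamini-Hochberg) was run on log2(RPKM + 1) of footprints and RNA and on their difference for TE, with group as the only term; this scale understates changes of low genes. The script was tested on simulated data. A planned count test was replaced, as the table holds RPKM. Python 3.11.15 was used elsewhere.

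Members, gene lists and tests were chosen with earlier results of these data known. Values in every library were given for the P stalk genes, Rpl5, Rpl11, Rpl41 and the paralogues, for the 5 largest and 5 smallest differences among tested members in each measure, and for the 3 highest and 3 lowest WT footprint levels; some results under this rule are not reported here. Others named were chosen after their values were seen. Same-numbered libraries did not deviate together (correlation 0.0226 in footprints, -0.335 in RNA and 0.00836 in TE), so numbers were not used as pairs.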

Additional observations from a re-analysis of the deposited data

How the results depend on the processing

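Footprint medians rested on single KO libraries, while the RNA median kept its sign with any 1 library left out. With single replicates left out, the median log2 difference over 51 members ran from -1.06 to 1.50 in footprints. It ran from -1.70 to 0.88 in TE and from 0.40 to 0.64 in RNA. The difference in footprint share ran from -0.0749 to 0.146 percentage points. With 1 library left out, 7 of 20 footprint differences changed sign, ranging from -4.16 to 1.61 (Rpl12), -2.06 to 1.91 (Rpl18), -3.95 to 1.18 (Rpl23), -0.35 to 0.56 (Rpl30), -1.48 to 0.18 (Rpl41), -1.29 to 0.11 (Rpl7a) and -0.96 to 0.995 (Rplp1). So did 7 of 20 in TE, from -5.15 to 0.84 (Rpl12), -2.66 to 1.53 (Rpl18), -4.48 to 0.51 (Rpl23), -0.034 to 1.23 (Rpl26), -1.01 to 0.022 (Rpl30), -0.29 to 0.90 (Rpl7) and -1.66 to 0.51 (Rplp1), and 1 of 20 in RNA, from -0.051 to 0.086 (Rplp0). Rpl18 footprints also turned to 0.38 by limma-voom and to 0.0844 with a pseudocount of 5. RNA calls numbered 18 of 20 members in the main test and 40 of 46 with the filter on RNA. With no filter they numbered 33 of 51 (32 higher, 1 lower). A stricter filter, which tests fewer genes, gave 8. With the replicate number as a block, 0 members passed in footprints and in TE, and 17 in RNA. A crossed replicate block, added after the data were seen, gave 19 RNA calls. The pseudocount, median centring, the fit without a trend and leaving out members of under 100 codons kept every count of members within 1.5 times. limma-voom, the RNA filter and the share without Rpl11 and Rpl23 were also chosen after seeing the data. The planned edgeR and DESeq2 fits were not run, since the table holds RPKM. Few reads limited the footprint results: the median member had 31 reads over 4 libraries.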
